A study of Mus musculus with 20 samples.

Results

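The comparison described here is between eosinophils that lack the phosphatase gene Dusp5 and eosinophils that carry it, both after stimulation with IL-33. Its members are all probe sets of the array that carry exactly 1 gene symbol, 17826 of 20630, which stand for 17771 genes, and 10 of the 20 arrays of the series. The cells were eosinophils grown from mouse bone marrow, from 5 Dusp5+/+ mice (wild type) and 5 Dusp5-/- mice (knockout), and all 10 arrays hold cells given IL-33 at 25 ng/ml for 4 hours on culture day 12. Cells of the same 10 mice kept in medium without IL-33 gave the other 10 arrays, which enter the fit and serve as the untreated reference. Each array holds the RNA of 1 mouse's culture, so the spread between arrays is the spread between mice. How the Dusp5 allele was made, the mice's strain, age and sex, and the cytokines of the culture are not stated in the labels.

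IL-33 is an alarm cytokine released by damaged epithelium, and it activates eosinophils through the adaptor MyD88, IRAK kinases, NF-kB and the MAP kinases. DUSP5 is a phosphatase of the nucleus that switches off ERK1 and ERK2 by dephosphorylation and also anchors them there, and ERK signalling switches on the Dusp5 gene, which closes a feedback loop. Active nuclear ERK phosphorylates ETS-family partners of the serum response factor SRF, and these factors drive immediate early genes such as the Egr family, which in turn act on cytokine genes.

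The log2 values of the 10 IL-33 arrays had nearly equal medians, and arrays correlated at 0.976 to 0.995 within the wild-type group, 0.987 to 0.995 within the knockout group and 0.971 to 0.995 between the groups. The first principal component of these 10 arrays held 52.6% of their variance and did not split them by genotype alone. Wild-type array 2 lay at 15.3, among knockout arrays 2 to 5 at 4.5 to 23.3, and knockout array 1 lay at -6.7, on the side of the other wild-type arrays, which were at -28.3 to -8.5. Counts are therefore given with and without these arrays, and genes whose call they decide are named beside their values. Of the 17771 genes, 11767 were bright enough on at least 5 arrays to be tested and 6004 were not.

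Dusp5 itself parted the genotypes without overlap, as the labels require. Its log2 values were 9.84, 10.23, 9.28, 9.67 and 9.85 in wild-type arrays 1 to 5 and 4.99, 5.06, 4.68, 4.88 and 5.15 in knockout arrays 1 to 5. Every knockout array lay more than 4 log2 units below every wild-type array, a difference of -4.82 ± 0.17 (knockout minus wild type ± SE, n = 5 and 5), or 28.3-fold lower in the knockout, with an adjusted p of 1.1e-13 in limma. In untreated cells the difference was -3.76 ± 0.17. The knockout mean of 4.95 ± 0.18 (SD) still lay above the 40th percentile of the arrays, so this probe set still gave a signal in the knockout.

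The 250 bases before the start of Dusp5 are printed because they hold the class of site through which SRF and its ERK-regulated partners act. They lie at chr19:53528895-53529144 on the + strand in the RefSeq annotation of GRCm38.p6, and the capitals mark a pair of adjoining CArG boxes, the SRF recognition motif, of which the first begins 82 bases and the second 72 bases before the start.
Dusp5: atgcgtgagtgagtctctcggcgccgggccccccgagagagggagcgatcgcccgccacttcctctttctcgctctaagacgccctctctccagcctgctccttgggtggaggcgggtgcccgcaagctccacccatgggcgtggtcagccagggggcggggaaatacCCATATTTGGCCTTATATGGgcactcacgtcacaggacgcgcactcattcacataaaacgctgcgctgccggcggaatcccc
A CArG box was found in 1.4% of all 27025 promoters of the table and in 1.18% of those of tested genes. The match is a description of the letters and was not tested as a site.

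Loss of Dusp5 left 260 of the 11767 tested genes past the threshold after IL-33, an adjusted p under 0.05 in limma (2.21%). Of these, 116 were higher in the knockout (0.986%) and 144 were lower (1.22%). Most changes were small: 50 genes were at least 1.5-fold higher and 22 at least 1.5-fold lower, and at least 2-fold changes were found in 9 higher genes and 2 lower ones. All 5 knockout arrays lay above all 5 wild-type arrays for 160 genes (1.36%) and below them for 231 genes (1.96%), and 64 of the 116 higher and 76 of the 144 lower genes were among these. The median difference over all tested genes was -0.03. In such bulk cultures, fewer cells of a type and less RNA per cell cannot be told apart.

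The count depended on single arrays and on the spread that was assumed. Without wild-type array 2 it was 1659 genes and without knockout array 1 it was 1049, and both lists held all 260 genes with the same direction. Leaving out any other IL-33 array left between 33 and 82 genes. Untreated and IL-33 arrays of 1 number and genotype were taken as 1 mouse. With the mouse so taken as a random block, 514 genes passed, 255 of the 260 among them. When only the 10 IL-33 arrays set the spread, 24 genes passed, all of them among the 260. Of the 84 genes named here that passed, 18 kept the call in every other setting in which they were tested, and 63 lost it with only these 10 arrays. A further quantile normalization turned the split from 44.62% higher to 67.71% higher (151 higher and 72 lower), so the balance of rises and falls depends on the scaling between arrays.

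**Figure D1:**
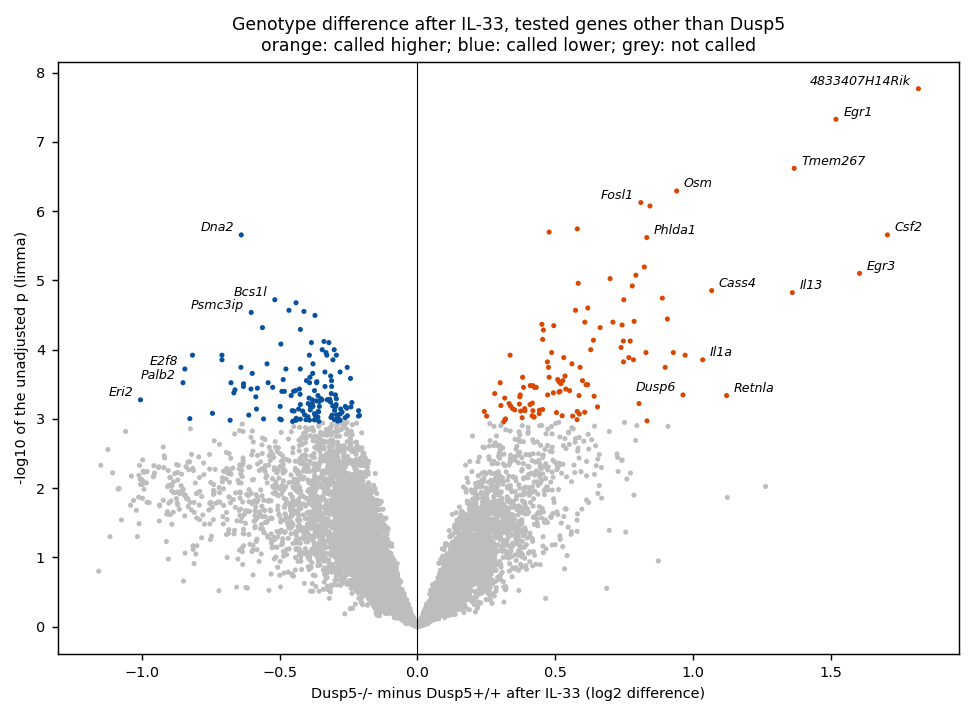
Each point is 1 tested gene other than Dusp5, with the log2 difference knockout minus wild type after IL-33 on the x axis and the negative log10 of limma's unadjusted p on the y axis. The 116 genes called higher (orange) reach 1.82, 4833407H14Rik, and those called lower (blue) reach -1.00, Eri2.

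Immediate early genes that respond to ERK were among the rises. Of 27 tested members of a list of ERK output and feedback genes, 12 were higher in the knockout and 0 lower. Among all tested genes 0.986% were higher and 1.22% lower, and the counts for the lists below stand beside the same shares. The ERK list's median difference was 0.39 against -0.03 for all tested genes. The median of the same members in untreated cells was 0.19, where 0 of them passed. The mean log2 value over the 27 genes ran from 7.61 to 7.94 in the wild-type IL-33 arrays and from 8.07 to 8.32 in the knockout ones, with no overlap, and wild-type array 2 was the highest of its group. Leaving out wild-type array 2 raised the count of higher members to 15, leaving out another IL-33 array gave 7 to 14, and the 10 IL-33 arrays on their own gave 6.

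Egr1, a zinc finger factor and the best-known early target of ERK, read 9.81, 8.94, 9.50, 9.73 and 9.71 in the wild-type arrays and 11.21, 10.47, 11.57, 10.97 and 11.06 in the knockout arrays. The lowest knockout array, number 2, lay above the highest wild-type array, number 1. Egr1 rose by 1.52 ± 0.18 (2.86-fold, adjusted p = 1.8e-04), the smallest adjusted p among the rises after that of 4833407H14Rik, a neighbour of Dusp5 described further on. Its relative Egr3 read 9.09, 8.74, 8.77, 9.19 and 9.36 in wild type and 10.79, 10.19, 11.08, 10.35 and 10.77 in knockout, again without overlap, a rise of 1.60 ± 0.27 (adjusted p = 0.00658). Egr2 was closer, at 9.75, 10.26, 9.90, 9.93 and 9.80 against 10.39, 10.66, 10.62, 10.70 and 10.97, a rise of 0.74 ± 0.15 (adjusted p = 0.0218). Its call was lost in 6 of 19 other settings, each with 1 IL-33 array left out. Nab2, which binds Egr proteins and represses their targets, rose by 0.58 ± 0.10 (adjusted p = 0.00763). Of these genes, Egr3 had the largest untreated difference, 1.16 ± 0.27 (adjusted p = 0.306), and Egr1 stood at 0.68 ± 0.18 (adjusted p = 0.383).

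The remaining rises of the list joined AP-1 parts with early-response genes of other kinds. Fosl1, an AP-1 subunit whose RNA follows sustained ERK activity, read 5.70, 5.83, 5.25, 5.59 and 5.43 in wild type and 6.18, 6.27, 6.66, 6.47 and 6.27 in knockout. All knockout arrays were above all wild-type ones, and Fosl1 rose by 0.81 ± 0.11 (adjusted p = 0.00142). Phlda1, a small pleckstrin-homology protein, rose by 0.83 ± 0.13 (adjusted p = 0.00232) with values of 9.04, 9.19, 8.48, 8.83 and 8.68 against 9.65, 9.39, 10.04, 9.69 and 9.62. Ier2 rose by 0.58 ± 0.09, Junb, another AP-1 subunit, by 0.51 ± 0.12, Maff by 0.41 ± 0.10 and Ier5 by 0.39 ± 0.10, with adjusted p of 0.00232, 0.0332, 0.0422 and 0.0446. Of 19 other settings, Junb lost its call in 9, Maff and Ier5 each in 11 and Ier2 in 0. Fos, whose RNA is gone within hours of most stimuli, stood at 8.13 ± 0.24 (SD) in wild type and 8.17 ± 0.22 in knockout, a difference of 0.04 ± 0.12 (adjusted p = 0.850).

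Inhibitors of the pathway were also higher. Dusp6, the cytoplasmic ERK phosphatase, read 9.07, 9.82, 9.08, 9.16 and 8.96 in wild type and 9.59, 10.28, 10.07, 10.56 and 10.41 in knockout. Wild-type array 2 overlapped the lowest knockout array, and Dusp6 rose by 0.96 ± 0.23 (adjusted p = 0.0373). Spred2, a membrane protein that blocks activation of RAF by RAS, rose by 0.89 ± 0.16 (adjusted p = 0.00978) from 7.59, 8.39, 7.45, 7.61 and 7.53 to 8.29, 8.51, 8.65, 8.74 and 8.82, where wild-type array 2 lay far above its group. Rasa2, which speeds the hydrolysis of GTP on RAS, rose by 0.91 ± 0.17 (adjusted p = 0.0138) and was the only 1 of 17 tested members of the RAF-MEK-ERK cascade list to pass. The cascade list's median was 0.13. Among 7 tested phosphatases of MAP kinases other than Dusp5, Dusp6 and Dusp2 passed, Dusp2, a nuclear enzyme like DUSP5, with 0.61 ± 0.14 (adjusted p = 0.0336). Dusp16, at 0.36 ± 0.10, did not pass (adjusted p = 0.0627) although its groups did not overlap, and Dusp1 was at 0.21 ± 0.14 (adjusted p = 0.386). Dusp16 passed without wild-type array 2 or knockout array 1. Each of the Dusp6 and Dusp2 calls was lost in 9 of 19 other settings, with adjusted p up to 0.104 and 0.102. For Dusp6 these were the 10 IL-33 arrays on their own and the loss of any 1 IL-33 array but wild-type array 2 or knockout array 1, and for Dusp2 the same except that the loss of knockout array 2 kept the call and the block on replicate number ended it.

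Other early transcription factors followed in part. The orphan nuclear receptor Nr4a1 read 8.18, 8.08, 8.23, 8.41 and 8.24 in wild type and 9.25, 8.75, 9.43, 8.83 and 8.99 in knockout, without overlap, a rise of 0.82 ± 0.14 (adjusted p = 0.00582). Its relative Nr4a3 rose by 0.70 ± 0.12 (adjusted p = 0.00690). They were the 2 of 14 tested AP-1, Nr4a and Kruppel-like factors that passed, and the list's median was 0.28. Jund, an AP-1 subunit, was at 0.28 ± 0.08 (adjusted p = 0.0666) and passed without wild-type array 2. Plk3, a stress-responsive polo-like kinase, read 7.29, 7.80, 7.38, 7.44 and 7.28 against 8.31, 8.12, 8.24, 8.30 and 8.44, a rise of 0.84 ± 0.12 (adjusted p = 0.00142). The ETS-family genes Etv3 and Ets2 rose by 0.62 and 0.32, Nfil3 by 0.56 and Jdp2 by 0.42. Etv5, a further ETS gene and ERK target, was at 0.91 ± 0.24 with an adjusted p of 0.0528. Etv5 passed in 7 of 19 other settings, among them the mouse as a random block and the fits without wild-type array 2 or knockout array 1.

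**Figure D2:**
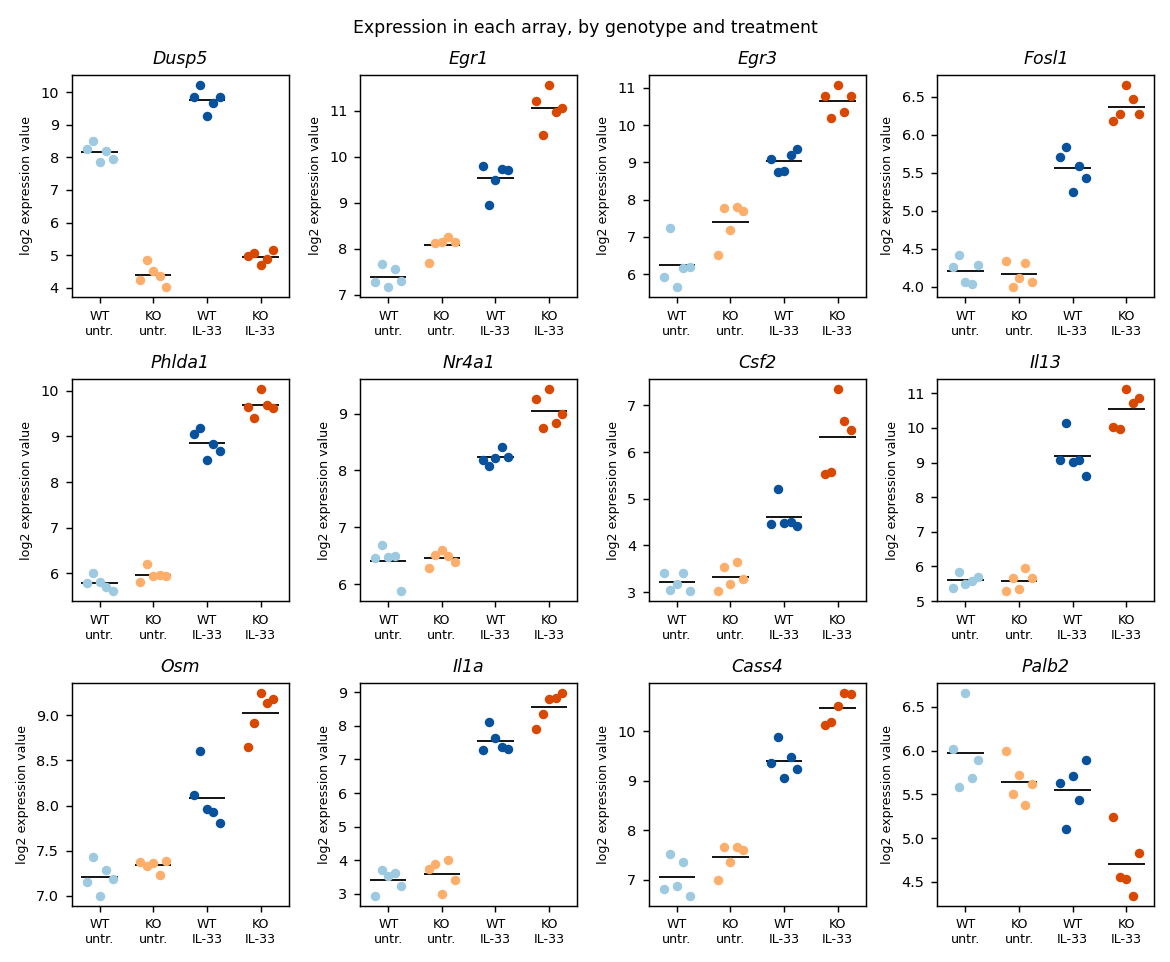
Log2 expression values of 12 genes in every array (points) and the group mean (bars), for wild-type (WT) and knockout (KO) cells, untreated or after IL-33, with the arrays of each group in the order of their replicate number. Dusp5 and Palb2 are lower in the knockout after IL-33, the other 10 genes are higher, and the Csf2 and Il13 groups lie together in untreated cells.

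Cytokine genes of type 2 immunity and myeloid growth held the second and sixth largest rises. Csf2, which encodes GM-CSF, a survival factor for eosinophils, read 4.47, 5.21, 4.48, 4.50 and 4.42 in wild type and 5.53, 5.58, 7.35, 6.67 and 6.47 in knockout. All knockout arrays lay above all wild-type arrays, but knockout arrays 1 and 2 were close to wild-type array 2. Csf2 rose by 1.70 ± 0.26 (3.26-fold, adjusted p = 0.00232) and was at 0.11 ± 0.26 in untreated cells, where it was too dim for an exact value. Its SD was 0.33 in wild type and 0.77 in knockout after IL-33, against 0.19 and 0.25 untreated. Il13, a central cytokine of allergic inflammation, read 9.08, 10.14, 9.02, 9.06 and 8.62 and 10.04, 9.98, 11.13, 10.71 and 10.87. Here wild-type array 2 lay above knockout arrays 1 and 2, and Il13 rose by 1.36 ± 0.24 (2.57-fold, adjusted p = 0.00866), against -0.01 ± 0.24 in untreated cells. The other 4 of 6 tested genes of this list did not pass, among them Il4 at 0.49 ± 0.14 (adjusted p = 0.0710) and Csf1 at 0.45 ± 0.15 (adjusted p = 0.0931). Without wild-type array 2 both of these passed, and without knockout array 1 Il4 did. The list's median was 0.47.

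Of the interleukin-6 family, 2 of 9 tested genes rose and 0 fell, and the median was 0.23. Osm, the gene of oncostatin M, read 8.12, 8.60, 7.96, 7.93 and 7.81 in wild type and 8.65, 8.91, 9.24, 9.14 and 9.18 in knockout. The lowest knockout array, number 1, lay just above wild-type array 2, and Osm rose by 0.94 ± 0.13 (1.92-fold, adjusted p = 0.00120). Lif, the gene of leukaemia inhibitory factor, was dim at 4.09 ± 0.16 (SD) in wild type and rose by 0.64 ± 0.13 (adjusted p = 0.0194). In the list of other cytokines 3 of 9 tested genes rose, with a list median of 0.51. Il1a, an alarm cytokine of the interleukin-1 family, rose by 1.03 ± 0.22 (adjusted p = 0.0238), from 7.28, 8.11, 7.65, 7.37 and 7.32 to 7.92, 8.35, 8.82, 8.83 and 8.98, with wild-type array 2 above knockout array 1. Il1rn, which encodes the antagonist of the interleukin-1 receptor, rose by 0.83 ± 0.17 (adjusted p = 0.0227) and Tgfb1 by 0.51 ± 0.12 (adjusted p = 0.0332). Il1bos, a transcript from the strand opposite Il1b, rose by 0.93 ± 0.19 (adjusted p = 0.0227), and Il1b itself was at 0.51 ± 0.18 (adjusted p = 0.106). Tnf was at 0.75 ± 0.20 with an adjusted p of 0.0504. Tnf passed in 7 of 19 other settings, among them the mouse as a random block and the fits without wild-type array 2 or knockout array 1, and Il1b passed without wild-type array 2.

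Chemokine and NF-kB genes gave few calls. Ccl4, an inflammatory chemokine, read 10.28, 10.62, 10.12, 10.27 and 10.02 in wild type and 10.96, 10.73, 11.31, 10.98 and 11.04 in knockout, without overlap, and rose by 0.74 ± 0.14 (adjusted p = 0.0143). It was the only one of 17 tested chemokines to pass, and their median was 0.13. Cxcl2, a neutrophil attractant, stood at 0.61 ± 0.23 (adjusted p = 0.123) and passed without wild-type array 2. Among 20 tested NF-kB subunits, targets and feedback genes, Rel, a subunit, rose by 0.71 ± 0.13 (adjusted p = 0.0138) and Nfkbid, a nuclear IkB protein, by 0.47 ± 0.10 (adjusted p = 0.0238), with a list median of 0.12. None of 13 tested genes of the IL-33 receptor adaptors and IRAK signalling passed, and their median was -0.02. None of 11 tested regulators of cytokine mRNA decay passed, with a median of 0.07. In the SOCS, Pim and JAK-STAT list, Cish, an inhibitor induced through STAT5, rose by 0.61 ± 0.12 and the survival kinase Pim3 by 0.59 ± 0.15 (adjusted p = 0.0138 and 0.0469), 2 of 21 tested.

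**Figure D3:**
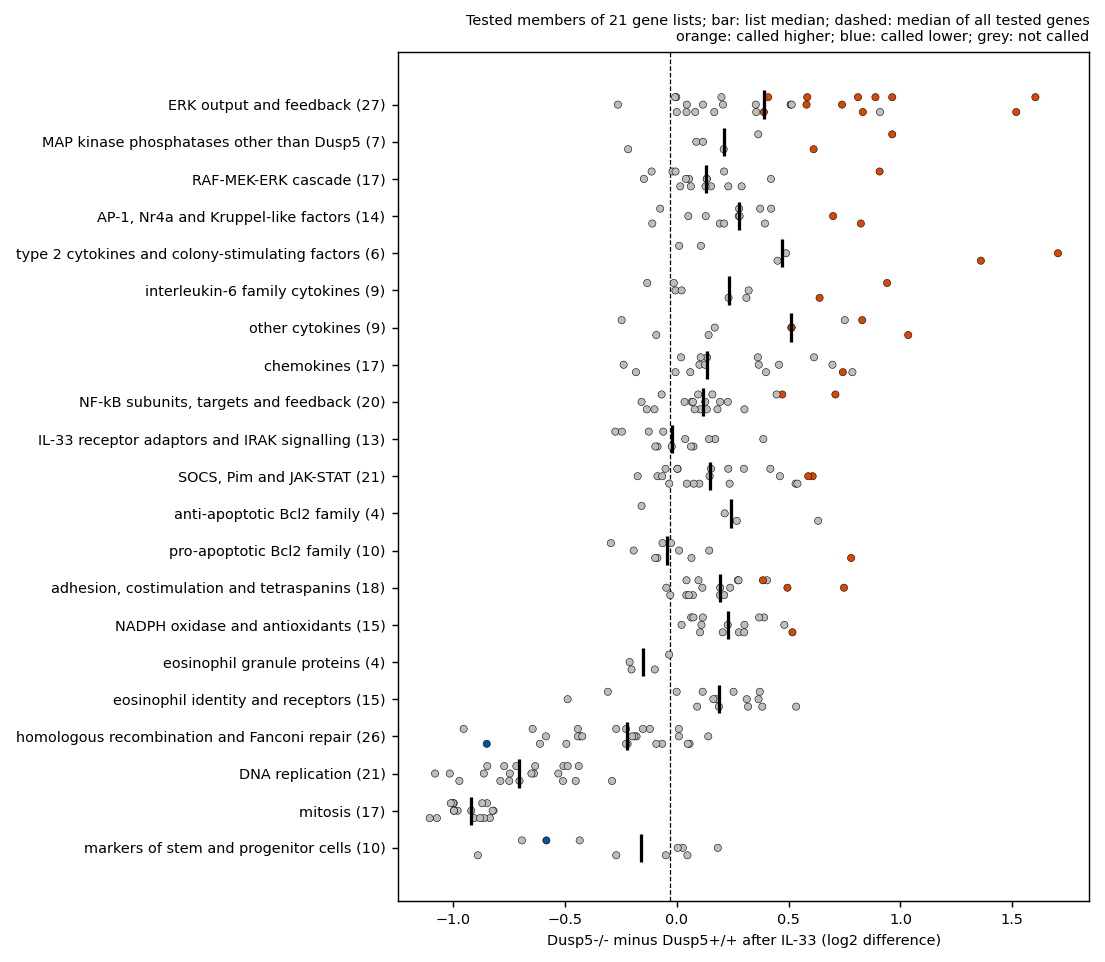
Log2 difference knockout minus wild type after IL-33 (x axis) for every tested member of 21 gene lists, with the number of tested members in brackets, the list's median as a bar and the median of all tested genes as a dashed line. The ERK output list has 12 members called higher (orange), while the 17 mitosis genes all lie below 0 with none called (grey).

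Surface and effector genes with single rises were spread over several lists. Cass4, a scaffold of the Cas family that links focal adhesion kinases to the cytoskeleton, read 9.35, 9.89, 9.05, 9.48 and 9.23 in wild type and 10.12, 10.19, 10.52, 10.77 and 10.75 in knockout. The groups did not overlap, with wild-type array 2 the closest, and Cass4 rose by 1.07 ± 0.19 (2.10-fold, adjusted p = 0.00862). It was the only member of 14 tested Cas scaffold and focal adhesion genes to pass. Retnla, a secreted resistin-like protein and a marker of type 2 activation, rose by 1.12 ± 0.27 (adjusted p = 0.0373), the only 1 of 19 tested genes of remodelling and type 2 activation, and lost that call in the same 9 settings as Dusp6. Among 18 tested adhesion, costimulation and tetraspanin genes, Cd69, an early activation antigen, rose by 0.75 ± 0.16, Pdcd1lg2, the second ligand of PD-1, by 0.49 ± 0.10 and the tetraspanin Cd9 by 0.38 ± 0.09 (adjusted p = 0.0238, 0.0143 and 0.0347). Cd47, the signal that restrains uptake by phagocytes, rose by 0.79 ± 0.13 (adjusted p = 0.00658), without overlap at 4.78, 4.85, 4.75, 4.81 and 4.55 against 5.41, 5.61, 5.61, 5.60 and 5.46.

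Lipid mediator and redox genes each gave few calls. Pla2g4a, the phospholipase that frees arachidonic acid, rose by 0.54 ± 0.12, and Ltb4r1, a leukotriene B4 receptor, fell by 0.42, from 9.21 ± 0.09 (SD) to 8.79 ± 0.17 (adjusted p = 0.0316 and 0.0150), among 20 tested eicosanoid genes. Ptgs2, the inducible cyclooxygenase, was at 0.76 ± 0.25 (adjusted p = 0.0920), although its groups did not overlap, and it passed without wild-type array 2. All 15 tested NADPH oxidase and antioxidant genes lay above 0, with a median of 0.23, but only Hmox1, haem oxygenase 1, passed, with 0.52 ± 0.12 (adjusted p = 0.0357). Further rises, named after their values were seen, were in the soluble pattern receptor Ptx3 at 0.78, the water and glycerol channel Aqp9 at 0.83, the G protein inhibitor Rgs16 at 0.79, the lectin receptor Clec4n at 0.77 and the chemokine receptor Ccr1 at 0.64. The growth factors Hgf and Vegfc were at 0.61 and 0.58, the inflammasome sensor Nlrp3 at 0.53 and the myeloid receptor Trem1 at 0.47. Among the largest rises outside the lists were Ddx6, a helicase of mRNA repression and decay, with 0.97 ± 0.20, and the unconventional myosin Myo1d with 0.90 ± 0.20. Ddx6 and Myo1d each lost the call in 8 of 19 other settings.

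The lists of Bcl2 family genes and of caspases gave 1 call, in a gene that promotes death. The survival factor gene Csf2 and the survival kinase Pim3, both higher as described above, belong to other lists. Bcl2l11, which encodes the pro-apoptotic protein BIM, read 6.78, 7.25, 6.46, 6.80 and 6.69 in wild type and 7.24, 7.44, 7.82, 7.76 and 7.61 in knockout. Knockout array 1 lay just below wild-type array 2, and Bcl2l11 rose by 0.78 ± 0.13 (adjusted p = 0.00807), the only 1 of 10 tested pro-apoptotic Bcl2 family genes. None of the 4 tested anti-apoptotic genes passed, and their median was 0.24. Of the 7 genes on that list, Bcl2a1a, Bcl2a1b and Bcl2a1d had no probe set with 1 symbol and were not tested. Bcl2 was at 0.63 ± 0.18 (adjusted p = 0.0625), Bcl2l1, which encodes BCL-XL, at 0.21 ± 0.09 (adjusted p = 0.141) and Mcl1 at 0.27 ± 0.15 (adjusted p = 0.280). Wild-type array 2 was the highest of its group for Bcl2, at 5.73, and without it, or without knockout array 1, Bcl2 passed. None of 9 tested caspase and apoptosome genes passed, and their median was -0.03.

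Of the homologous recombination and Fanconi repair list, Palb2 was called lower. Palb2, the partner that brings BRCA2 to DNA breaks, read 5.63, 5.11, 5.71, 5.43 and 5.89 in wild type and 5.25, 4.55, 4.54, 4.34 and 4.83 in knockout. Wild-type array 2 and knockout array 1 overlapped, and Palb2 fell by 0.85 ± 0.19 (adjusted p = 0.0332). That call was lost in 9 of 19 other settings, with adjusted p up to 0.0917, namely with the 10 IL-33 arrays on their own and without any 1 of them other than wild-type array 2 and knockout array 1. It was the only 1 of the list's 26 tested genes to pass, beside 1.22% of all tested genes called lower, and the list's median was -0.22. Brca1 was at -0.95 ± 0.31 (adjusted p = 0.0870) and the checkpoint kinase Chek2 at -0.61 ± 0.19 (adjusted p = 0.0810), and both passed with the mouse as a random block and without wild-type array 2 or knockout array 1. Smaller falls in other repair genes, named after their values were seen, were in the base excision enzyme Mutyh at -0.44, the damage sensor Xpc at -0.34, Tdp2 at -0.45 and the mismatch repair gene Mlh3 at -0.36. These 4 calls belong to no list used here and were lost in 11, 7, 11 and 12 of 19 other settings.

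The largest fall after Dusp5 was in Eri2, of the exoribonuclease family, which read 5.82, 4.95, 6.23, 5.69 and 5.98 in wild type and 5.38, 4.30, 4.75, 4.46 and 4.76 in knockout and fell by 1.00 ± 0.24 (adjusted p = 0.0393). Wild-type array 2 lay below knockout array 1. E2f8, an atypical E2F that represses cell cycle genes, was at -0.84 ± 0.18 and Csrp2, a LIM domain protein, at -0.83 ± 0.21 (adjusted p = 0.0266 and 0.0484). Mapk4, an atypical MAP kinase, was at -0.82 ± 0.17, without overlap, the small GTPase Rnd1 at -0.74 ± 0.19 and Sap30, of the Sin3 corepressor complex, at -0.71 ± 0.15 (adjusted p = 0.0227, 0.0465 and 0.0227). The transporter Slc45a3 was at -0.71 ± 0.15, the mitochondrial carboxykinase Pck2 at -0.68 ± 0.18, the keratin Krt18 at -0.68 ± 0.15 and the centriole assembly gene Sass6 at -0.66 ± 0.15. Pcyox1, a prenylcysteine oxidase, was at -0.64 ± 0.14. Tmcc2 was dim in the knockout, and with arrays under the 40th percentile set to it the gene was at least 1.4-fold lower. Other than Dusp5, every gene of this paragraph lost its call in some other settings. These numbered from 7 of 19 for Slc45a3 to 12 of 19 for Rnd1 and Pck2, with 9 for Eri2.

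Other falls parted the groups without overlap. Dna2, a helicase and nuclease of DNA replication and break repair, read 6.51, 6.27, 6.50, 6.44 and 6.47 in wild type and 6.07, 5.80, 5.72, 5.78 and 5.61 in knockout. Every knockout array was lower, and Dna2 fell by 0.64 ± 0.10 (adjusted p = 0.00232). Psmc3ip, a cofactor of homologous pairing, read 5.27, 4.83, 5.25, 4.95 and 5.10 against 4.49, 4.50, 4.51, 4.46 and 4.43 and fell by 0.60 ± 0.11 (adjusted p = 0.0117). Bcs1l, an assembly factor of mitochondrial complex III, fell by 0.52 ± 0.09 (adjusted p = 0.00978), with 6.23, 5.90, 6.12, 6.08 and 6.13 against 5.76, 5.34, 5.55, 5.62 and 5.61.

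Proliferation genes had lower values in the knockout, and whether they passed depended on the setting. All 17 tested mitosis genes lay below 0, with a median difference of -0.92 after IL-33 and -0.76 untreated, and none passed in either state. The 21 tested DNA replication genes also all lay below 0, with medians of -0.70 and -0.62, and none passed. The mean log2 value of the mitosis genes was 8.33, 7.10, 8.90, 7.91 and 8.64 in wild-type arrays 1 to 5 and 8.07, 6.82, 7.18, 6.85 and 7.27 in the knockout arrays, so wild-type array 2 lay within the knockout range and knockout array 1 within the wild-type range. Without wild-type array 2 the counts that passed were 17 of 17 and 15 of 21, and without knockout array 1 they were 14 and 8. With the mouse as a random block 6 mitosis and 2 replication genes passed, with the replicate number as a fixed block 4 and 12, and with array weights 17 and 19. Mki67, the proliferation antigen, was at -1.01 ± 0.37 (adjusted p = 0.117), Top2a at -0.87 ± 0.31 (adjusted p = 0.110), Rrm2 at -1.08 ± 0.38 (adjusted p = 0.105) and Mcm7 at -0.85 ± 0.31 (adjusted p = 0.111). The part of dividing cells in the other genotype differences was not tested.

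**Figure D4:**
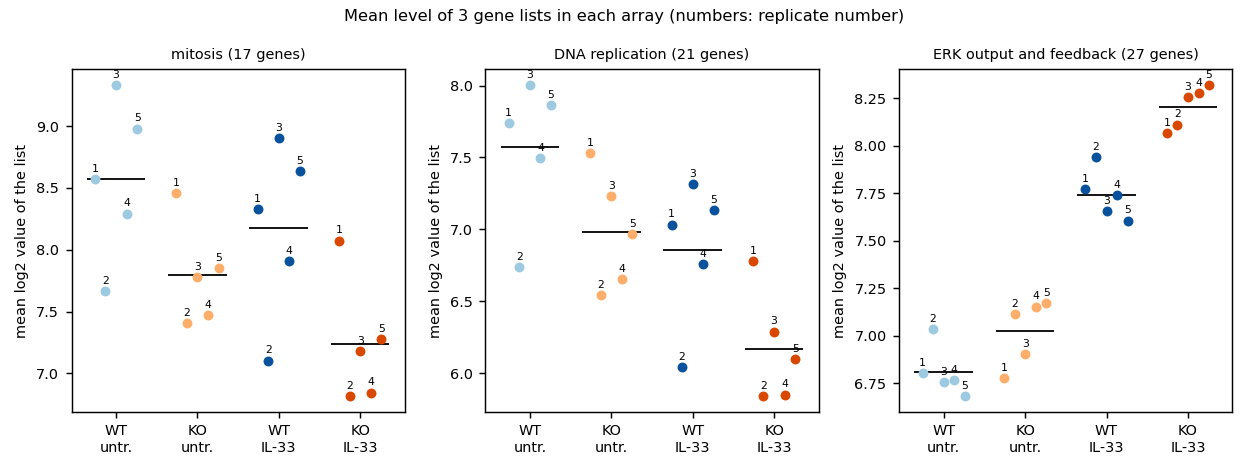
Mean log2 value of the tested genes of 3 lists in each array (points, numbered by replicate) with the group mean (bars), for wild-type (WT) and knockout (KO) cells, untreated or after IL-33. For mitosis and DNA replication, wild-type array 2 and knockout array 1 sit apart from their groups, while the ERK output means of 7.61 to 7.94 and 8.07 to 8.32 after IL-33 do not overlap.

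Markers of eosinophils did not pass in either direction. Of 4 tested granule protein genes and 15 tested identity and receptor genes, 0 passed, with medians of -0.15 and 0.19. Epx, eosinophil peroxidase, was at 13.47 ± 0.36 (SD) in wild type and 13.26 ± 0.30 in knockout, and Prg2, the major basic protein, at 13.82 ± 0.08 and 13.78 ± 0.04. The surface lectin Siglecf was at 0.25 ± 0.15, the eotaxin receptor Ccr3 at 0.53 ± 0.35 and the interleukin-5 receptor chain Il5ra at -0.49 ± 0.16 (adjusted p = 0.298, 0.364 and 0.0858). Il5ra passed, as lower, without wild-type array 2. Both granule genes were thus strongly expressed in every IL-33 array of either genotype.

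Among lists of other cells, 0 calls fell in markers of lymphocytes (7 tested), neutrophils (12), stromal and endothelial cells (6), mast cells with basophils (8), mononuclear phagocytes including dendritic cells (14), or megakaryocytes with erythroid cells (7), with medians from -0.17 to 0.08. In the stem and progenitor list, 1 of 10 tested genes was lower, Hoxa9, at -0.58 ± 0.15 (adjusted p = 0.0447). The log2 of that list's summed level ran from 11.91 to 11.99 in wild type and from 11.64 to 11.84 in knockout after IL-33, with no overlap. The mean log2 value over its 10 tested genes did overlap, at 6.65 to 7.05 in wild type and 6.30 to 6.76 in knockout. The cytokine receptor Kit was at -0.89 ± 0.31 and the factor Myb at -0.69 ± 0.21 (adjusted p = 0.101 and 0.0718), and Myb passed with the mouse as a random block and without wild-type array 2 or knockout array 1. None of the markers was at 0, since arrays give a signal for every probe set, and the part of progenitors in the falls was not tested.

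Genes near the targeted gene were also examined. Of 104 tested genes within 10 Mb of Dusp5, 3 were higher and 1 was lower, beside 13 called of 434 tested on the whole of chromosome 19 and 2.21% of all tested genes. 4833407H14Rik, known only by its clone name, read 7.83, 8.27, 7.51, 7.95 and 7.70 in wild type and 9.10, 9.70, 9.56, 10.06 and 9.92 in knockout, without overlap, a rise of 1.82 ± 0.20 (adjusted p = 1.0e-04) and of 1.65 ± 0.20 in untreated cells. Mirt1, a long noncoding RNA, was higher by 0.77 ± 0.16 and the splicing gene Smndc1 by 0.45 ± 0.09 (adjusted p = 0.0194 for both). Mfsd13a was at -0.56 ± 0.14 (adjusted p = 0.0484). The 3 higher genes were the last 3 tested genes before Dusp5 along the chromosome. The promoters read for them lie at 53390635-53390884 (Smndc1), 53460372-53460621 (4833407H14Rik) and 53464797-53465046 (Mirt1). Those of Dusp5 and Mfsd13a lie at 53528895-53529144 and 46356630-46356879. Smc3, the next tested gene after Dusp5, was at 0.04 ± 0.13 and did not pass. On chromosome 13, Tmem267, a membrane protein gene, rose by 1.37 ± 0.18 (adjusted p = 7.1e-04) and by 1.44 ± 0.18 untreated, and Nnt, the mitochondrial transhydrogenase, was at -0.31 ± 0.07 (adjusted p = 0.0238). Effects of the targeted allele on its neighbours cannot be told apart from effects of DUSP5 loss in this design. The same holds for any difference in strain background between the genotypes, at Tmem267 or elsewhere, since the strain is not stated.

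The genes that passed after IL-33 had smaller median differences in untreated cells, and the change in difference was tested as an interaction. In untreated cells 3 genes passed (0.0255%): 4833407H14Rik and Tmem267 higher and Dusp5 lower. The median difference of the 116 higher genes was 0.54 after IL-33 and 0.16 untreated, where 98 of them lay above 0, and that of the 144 lower genes was -0.38 and -0.13, where 122 lay below 0. These medians describe genes chosen by the first of the 2 differences. In the interaction, 0 genes passed in limma (0%), with 568 at an unadjusted p under 0.05 and a smallest adjusted p of 0.282, for Fosl1. With the mouse as a random block 26 genes passed, with array weights 2 did, 3 did without wild-type IL-33 array 2, and with the mouse as a fixed block 0 did (1633 at an unadjusted p under 0.05).

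In the fit with the random mouse block, 16 genes had a higher knockout minus wild-type difference after IL-33 than untreated and 10 a lower one. Csf2 led with 1.59 ± 0.37 on the log2 scale in the fit without the block (adjusted p = 0.0346 with the block and 0.444 without), followed by Il13 with 1.37 ± 0.34 (0.0346 and 0.522). Fosl1 was at 0.86 ± 0.16 (0.0096 and 0.282) and Osm at 0.82 ± 0.18 (0.0222 and 0.416). The group also held Spred2, Nr4a1, Plk3, Ier2, Ptx3 and Zc3h12c, a member of the Regnase family of RNA-degrading enzymes, which was itself at 0.47 ± 0.13 after IL-33 (adjusted p = 0.0574). The untreated Csf2 means of 3.22 in wild type and 3.33 in knockout lay below the 40th percentile of the arrays, so the size of its response to IL-33, and of its interaction, has no exact value. IL-33 minus untreated was 3.58 ± 0.49 (SD of 5 mice, arrays paired by number) in wild type and 4.96 ± 0.56 in knockout for Il13, and 0.87 ± 0.24 and 1.69 ± 0.26 for Osm. Egr1 and Egr3, the largest rises of the ERK list, were not among the 26, with 0.84 ± 0.25 and 0.44 ± 0.38.

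**Figure D5:**
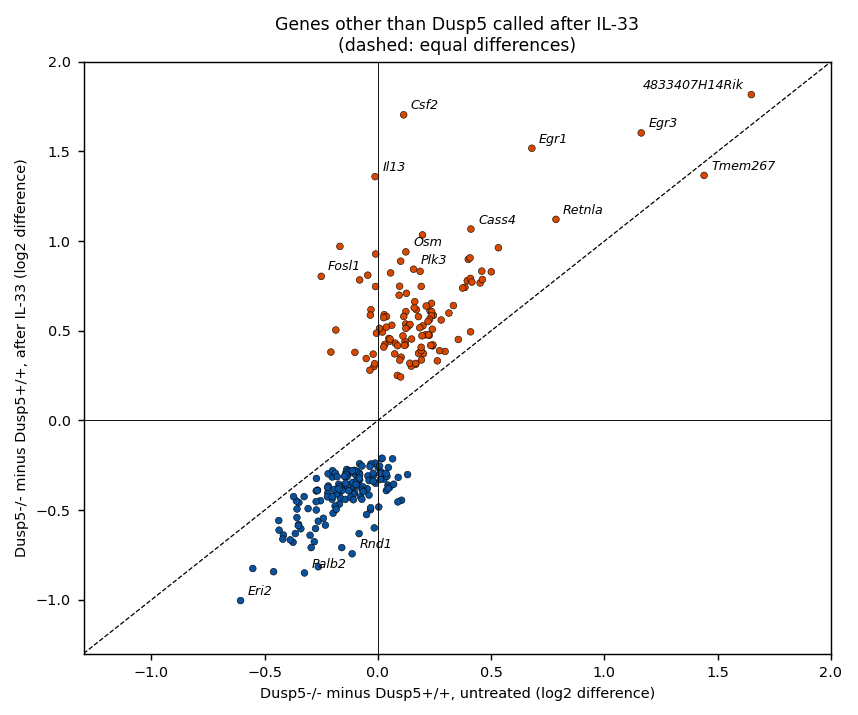
Log2 difference knockout minus wild type in untreated cells (x axis) and after IL-33 (y axis) for the genes other than Dusp5 that were called higher (orange) or lower (blue) after IL-33, with equal differences on the dashed line. Csf2 and Il13 lie near 0 on the x axis, while 4833407H14Rik and Tmem267 lie near the dashed line.

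Across 18 other settings of the fit, leaving aside the one that kept every probe set apart, 18 of the 260 genes passed in the same direction wherever they were tested. Of these, 14 were higher: 4833407H14Rik, Egr3, Egr1, Tmem267, Cass4, Osm, Plk3, Phlda1, Nr4a1, Fosl1, Cd47, Nr4a3, Ier2 and Selenon, an endoplasmic reticulum selenoprotein at 0.48 ± 0.07. The 4 lower ones were Dusp5, Dna2, Psmc3ip and Bcs1l. Csf2 missed the threshold only when the 10 IL-33 arrays alone set the spread (highest adjusted p 0.0554), and Il13 missed it there and with the replicate number as a block (highest 0.0745).

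Promoters of the genes that passed were read from the RefSeq table of GRCm38.p6, 250 bases before each start, in which 95 of the 116 higher genes, 118 of the 144 lower genes and 9530 tested genes were found by symbol. Among the higher genes not found were Egr1, Egr3, Fosl1, Phlda1, Ier2, Osm, Ccl4 and Cd69, so the shares below do not cover them. The motif of Egr factors, GCGNGGGCG on either strand, was in 15 of the 95 higher promoters (15.8%), in 4.24% of the lower ones, in 8.18% of those of tested genes and in 4.65% of all 27025. Il1a, Il1rn and Lif, with 2 other higher genes, held the AP-1 motif TGANTCA (5.26%, against 4.66% of tested genes). The cyclic AMP response element TGACGTCA was also in 5.26% of the higher promoters, against 2.54% of tested genes. The ETS motif CCGGAAG was in 8.42% of the higher, 14.4% of the lower and 13.4% of tested genes, and NF-kB sites in 13.7%, 10.2% and 8.85%. A CArG box was in 0 of the 95 higher promoters, in 0.847% of the lower ones and in 1.18% of those of tested genes. No test was made of these shares, and a promoter can hold several of these motifs, in part over the same bases.

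The following 3 promoters of genes that rose are printed to show such matches in genes described above, an NF-kB site in Egr2, an EGR motif on the minus strand in Nr4a1 and an AP-1 motif in Il1a, each in capitals. Egr2 is at chr10:67535249-67535498 (+ strand, the first of 5 starts listed), Nr4a1 at chr15:101266596-101266845 (+ strand) and Il1a at chr2:129309973-129310222 (- strand).
Egr2: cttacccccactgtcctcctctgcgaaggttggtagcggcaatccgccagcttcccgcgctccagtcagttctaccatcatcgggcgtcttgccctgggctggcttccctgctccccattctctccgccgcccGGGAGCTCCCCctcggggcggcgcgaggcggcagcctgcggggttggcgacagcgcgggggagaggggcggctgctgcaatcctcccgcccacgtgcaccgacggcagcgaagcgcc
Nr4a1: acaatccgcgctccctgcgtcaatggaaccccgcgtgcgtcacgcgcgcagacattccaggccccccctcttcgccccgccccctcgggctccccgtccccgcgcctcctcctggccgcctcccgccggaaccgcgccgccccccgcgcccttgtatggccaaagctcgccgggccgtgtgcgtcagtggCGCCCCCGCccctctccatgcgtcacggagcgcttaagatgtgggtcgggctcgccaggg
Il1a: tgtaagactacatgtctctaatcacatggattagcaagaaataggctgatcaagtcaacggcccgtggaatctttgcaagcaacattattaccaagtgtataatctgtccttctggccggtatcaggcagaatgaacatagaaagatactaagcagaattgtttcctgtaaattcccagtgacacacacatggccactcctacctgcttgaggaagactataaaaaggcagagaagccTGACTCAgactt
The site in Il1a begins 12 bases before the start, that in Nr4a1 60 bases and that in Egr2 117 bases. Binding at these letters was not measured.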

How the data were processed

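The deposited values are on a log2 scale, as read from the authors' matrix of 20630 probe sets and 20 one-colour arrays, from biotin-labelled cRNA prepared with a 3' in vitro transcription kit, per the labels' protocols. The background correction, summarization, normalization and probe set choice were not given in the sources used here, so differences carry whatever scaling the authors applied.

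Probe sets were named from the platform annotation (2 controls, 91 with several symbols and 2711 with none left out) and 17675 were matched to RefSeq (GRCm38.p6). For 54 genes with several probe sets the one with the highest mean was used. A gene was tested when it exceeded its array's 40th percentile (3.56 to 3.68) on at least 5 arrays. All 20 arrays entered limma 3.58.1 (R 4.3.3, lmFit and eBayes, 1 mean per group, 16 residual degrees of freedom), with Benjamini-Hochberg adjustment over 11767 genes, so that every adjusted p above is limma's. The model was also run on simulated data with independent noise in every array. That run does not cover dependence between arrays, such as the correlation of 0.464 between arrays taken as 1 mouse. The number of arrays limits the precision.

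The comparison and the 43 gene lists were chosen with earlier results of these data known. Named genes are the 15 largest rises and falls that passed, up to 4 members that passed per list, fixed markers, and neighbours of Dusp5 that passed. The other members of the ERK list, the genes that passed in every setting, those of the blocked interaction, Nnt, the list members that did not pass (up to 2 a list were allowed, without a rule for which), the cell cycle examples and the smaller changes so marked were chosen after their values were seen. Untreated and IL-33 arrays of 1 number and genotype were taken as 1 mouse, since the series' design text gives 5 mice per genotype for both treatments. The deviations of such arrays from the group means correlated at 0.262 to 0.783. Wild-type and knockout IL-33 arrays of 1 number, which come from different mice, correlated at -0.181 to 0.562. These ranges overlap, so the correlations do not settle which arrays share a mouse. Alternatives were other filters, scaling, blocks, weights, arrays and each array left out.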

Additional observations from a re-analysis of the deposited data

Results flagged for a closer look

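Within each group of 5 IL-33 arrays, the highest or lowest array was compared with its nearest neighbour for the 112 named genes, 224 groups in all, and chance marks about 1 in 20 groups. In 16 groups 1 array stood far from the other 4. Wild-type array 2 was that array in 9 of them. It was the highest of its group for Csf2 (5.21, the next at 4.50), Dusp6 (9.82), Spred2 (8.39), Pdcd1lg2 (7.37), Bcl2 (5.73) and Cxcl2 (12.19). It was the lowest for Sap30 (7.25), Dna2 (6.27) and Epx (12.85). Knockout array 1 was the highest of its group for Rnd1 (7.92) and the lowest for Cd9 (12.67) and Ccr1 (7.60). The others were wild-type array 1 for Tmcc2 (4.63) and wild-type array 3 for Bcl2l1 (9.07), both the highest, knockout array 3 for Ltb4r1 (8.49), the lowest, and knockout array 4 for Dusp16 (8.96), the highest.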

How the results depend on the processing

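For the genotype comparison after IL-33, with 260 genes, other settings gave 152 with no filter on dim genes, 444 with the filter at the 60th percentile, 514 with the mouse as a random replicate block, 2321 with array weights, 24 with only the 10 IL-33 arrays and 596 with the replicate number as a fixed replicate block. Wild-type and knockout arrays of a number share only that number (correlations 0.343, 0.562, 0.288, 0.113 and -0.181), and 151 of the 260 genes passed with that block. Leaving out 1 array gave 33 (without wild-type array 5) to 1659 (without wild-type array 2). Further quantile normalization (223), a variance trend (289) and every probe set on its own (260) stayed within 1.5 times. Untreated, 3 genes became 1466 with array weights and 3 to 15 with 1 array left out (15 without untreated wild-type array 2, 5 without untreated knockout array 5). The interaction, with 0 genes, had 26 with the mouse as a random replicate block, 2 with array weights and 0 to 3 with 1 array left out (3 without wild-type IL-33 array 2). Members of the ERK list that were higher numbered 12, or 6 to 17, in counts added after the data were seen, with 6 from the 10 IL-33 arrays only. The causes of these shifts were not tested. The mouse block lost no call among the 84 named genes that passed, and 63 of them lost their call with only the 10 IL-33 arrays. The sign turned in no setting for these 84. Fos, which did not pass, ran from -0.04 to 0.11 in all settings, with values below 0 without wild-type array 3 (-0.043) and without knockout array 2 (-0.03). Signal over background is not given in the table, so the size of changes in dim genes is uncertain.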
